A study of Mus musculus with 6 samples.

Results

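Mouse embryonic stem cells given LIF together with a MEK inhibitor were compared with the same cells given GCSF, across every gene-annotated feature of an expression microarray. The comparison was set by the sample labels and used 4 of the 6 arrays in the series, 2 labelled LIF/PD and 2 labelled GCSF. The remaining 2 arrays, from untreated cells, gave the control level. All 6 came from C57Bl/6 ES cells with a stable chimeric receptor named GRgp-Y118F, so the control and the LIF/PD cells carried the receptor too. Per the labels and the design text, GCSF cells were treated with GCSF for 1 h, and LIF/PD cells with LIF and 1 uM of the MEK inhibitor PD0325901 for 1 h. Treated cells had been kept without serum for 6 h. The sources used here do not say whether the untreated cells were also starved, nor whether replicates were separate cultures. If they were not, p-values measure the spread between these arrays only, which may be technical.

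LIF binds a receptor pair of LIFR and gp130, whose kinases activate the transcription factor STAT3 and, through the phosphatase SHP2, the RAS-MEK-ERK cascade. STAT3 keeps mouse ES cells undifferentiated in serum culture, whereas ERK moves them towards lineage commitment, which is why MEK inhibitors are used in media for naive cells. Chimeras of the GCSF receptor's outer part and gp130's inner part let one tyrosine of gp130 be changed while the cell's own LIF receptor stays intact. PD0325901 blocks MEK, and a fall of ERK-driven genes such as Dusp6 and Spry4 is the usual sign that it has acted.

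The deposited values ran from 2.29 to 14.5 and were read as log2 intensities. Array medians lay between 7.26 and 7.28 over the features within the annotation and between 7.11 and 7.16 over all features. As normalization is not stated, these medians do not show whether the arrays were equally bright before it. Across features, arrays within a group correlated at 0.9968 to 0.9977, and the 4 pairs of a GCSF with a LIF/PD array at 0.9958 to 0.9967. Of 28187 features, 21640 carried 1 gene symbol, 1321 carried several and 5226 none. A further 6573 features lay outside the annotation, and a fit of their own called 20 (0.304%). The test of genes covered the 16912 features whose mean was at least 6.70 on the log2 scale, and 14030 of these had 1 symbol. A call below means an adjusted p under 0.05 in limma, and a difference is the LIF/PD mean minus the GCSF mean on the log2 scale, with its standard error (SE) and 2 arrays in each group.

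Dusp6 and Spry4, which report ERK activity, did not fall in the arrays labelled with the MEK inhibitor. Dusp6, the phosphatase that switches off ERK itself, read 10.47 and 10.52 in the control arrays, 8.93 and 8.94 in those labelled GCSF, and 10.51 and 10.54 in those labelled LIF/PD. Spry4, a Sprouty inhibitor of receptor signalling to RAS, read 9.97 and 10.04, then 8.12 and 8.22, then 10.12 and 9.98 in the same order. Both genes were thus low in the arrays labelled GCSF and at the control level in the arrays labelled LIF/PD, where the inhibitor was to be. Not all ERK-related genes were low in GCSF. Etv4 and the brightest Etv5 feature differed from control by -0.09 and -0.03 there and did not pass. A second Etv5 feature was lower by -0.25 (limma adjusted p = 0.0306). What the Y118F change does to ERK signalling through the chimera was not tested. Which arrays received the inhibitor cannot be told from these files. The labels are kept as deposited, and each direction below is a statement about arrays labelled LIF/PD and arrays labelled GCSF.

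Between these arrays 143 features passed the test, which is 0.846% of those tested. Of them 68 (0.402%) were higher in LIF/PD and 75 (0.443%) were lower. The higher calls held 54 genes with a single symbol and 14 features without one, and the lower calls held 53 genes and 21 such features. Differences were mostly small. The median was 0.40 among higher and -0.41 among lower calls, with 17 and 15 features differing by at least 1.5-fold and 6 and 4 by at least 2-fold. Among all tested features 42 differed by at least 1.5-fold, and 10 of those did not pass. In every called feature the 2 GCSF values and the 2 LIF/PD values did not overlap. Over all tested features that separation was common too, with 22.4% separate in the higher and 19.1% in the lower direction. Counted by gene, with each gene represented by its brightest feature, 99 of 12949 genes passed (0.765%), 50 higher (0.386%) and 49 lower (0.378%).

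**Figure D1:**
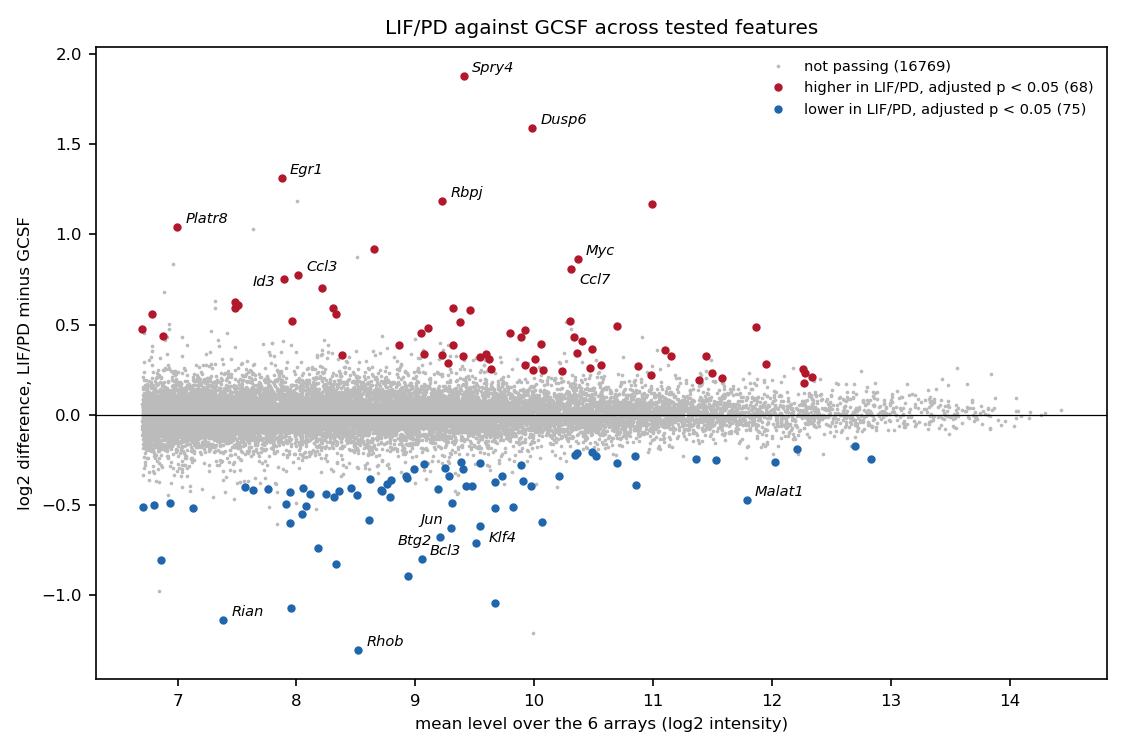
Difference between LIF/PD and GCSF (vertical axis, log2) against the mean level over the 6 arrays (horizontal axis, log2 intensity), 1 point per tested feature, with red for the 68 higher calls, blue for the 75 lower calls and grey for the rest. Spry4, Dusp6 and Egr1 stand at the top, Rhob and Rian at the bottom, and most features lie close to 0.

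Set against the untreated arrays, most called features lay nearer to control in LIF/PD than in GCSF. Among the 68 higher calls the control mean was nearer to LIF/PD in 59 and nearer to GCSF in 9. Among the 75 lower calls it was nearer to LIF/PD in 70 and nearer to GCSF in 5, while over all tested features it was nearer to LIF/PD in 56.1%. Those positions use the same GCSF and LIF/PD values as the calls and are a description. The control arrays were tested against each treatment as well, in comparisons that share arrays with this one. GCSF against control had 198 called features (1.17%), LIF/PD against control 11 (0.065%). Of the 68 higher calls, 41 were called in GCSF against control, 1 in LIF/PD against control and 26 in neither. The 75 lower calls held 58 for GCSF, 4 for LIF/PD, with 3 of these 4 in both, and 16 in neither. For 48 of the 75, the LIF/PD mean lay between the control and the GCSF mean.

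**Figure D2:**
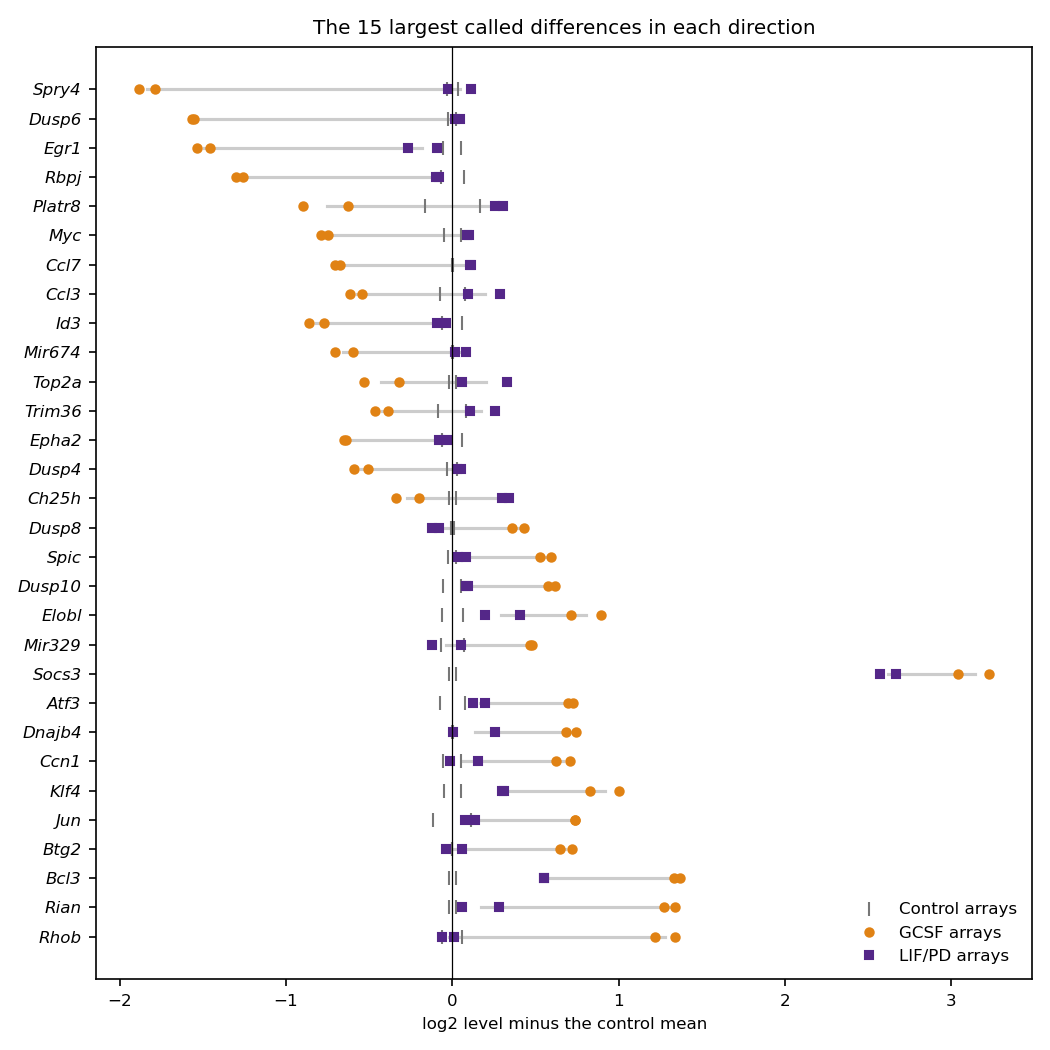
Difference from the control mean (horizontal axis, log2) for each of the 15 genes with the largest higher and the 15 with the largest lower difference among called genes, with ticks for control arrays, circles for GCSF arrays, squares for LIF/PD arrays and a grey line joining both treatment means. For most genes the squares lie near 0 and the circles away from it, and Socs3 is the case where both lie far to the right.

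Feedback inhibitors of the ERK cascade gave the largest differences. The gene groups here and below were chosen with earlier results of these data known. Their called shares describe the chosen members and are no test of a family. In the group of Sprouty, Spred and other feedback inhibitors, 3 of 10 tested genes were called, all higher in LIF/PD, against 0.386% of all genes. They were Spry4, Spry2 and Errfi1, which is neither a Sprouty nor a Spred gene, and no Spred gene was called. The group's median difference was 0.13 against 0.01 over all genes. Spry4 was higher by 1.88 ± 0.06 (SE), a 3.68-fold difference (limma adjusted p = 5.21e-06). Spry2, a second Sprouty inhibitor, read 9.43 and 9.46 in control, 9.09 and 9.28 in GCSF and 9.80 and 9.73 in LIF/PD. It was higher by 0.58 ± 0.06 (adjusted p = 0.00515), with the LIF/PD arrays above both other groups. Errfi1, an inhibitor of EGF receptors, was higher by 0.34 ± 0.04 (adjusted p = 0.0114). Spry1 and Spred1 differed by 0.33 and 0.19 and did not pass. Without LIF/PD replicate 1 the calls of Spry2 and Errfi1 were lost (adjusted p = 0.0827 and 0.0988), and that of Errfi1 was also lost without GCSF replicate 1 (0.0705).

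The phosphatases of MAP kinases divided. Of 11 tested, Dusp6 and Dusp4 were higher in LIF/PD and Dusp8 and Dusp10 lower, 36.4% against 0.765% of all genes in either direction. Dusp6 was higher by 1.59 ± 0.04, or 3.01-fold, with the smallest adjusted p of the whole comparison (9.69e-07). Dusp4, which acts on ERK in the nucleus, read 7.97 and 7.89 in GCSF and 8.53 and 8.51 in LIF/PD, with control at 8.45 and 8.51. It was higher by 0.59 ± 0.06 (adjusted p = 0.0029). Dusp8 and Dusp10, which prefer the stress kinases JNK and p38, were lower by -0.49 ± 0.06 and -0.51 ± 0.06 (adjusted p = 0.00999 and 0.0105), and in both the control arrays read near LIF/PD. Dusp5, another ERK phosphatase, differed by 0.26 ± 0.05 and missed the threshold (adjusted p = 0.0926). Leaving out LIF/PD replicate 1 ended the calls of Dusp4 (0.0565), Dusp8 (0.0827) and Dusp10 (0.0994). Those of Dusp8 and Dusp10 also ended without LIF/PD replicate 2 (both 0.104), that of Dusp8 without GCSF replicate 2 (0.0558) and that of Dusp10 without GCSF replicate 1 (0.0762).

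Of 21 tested ETS factors and other genes known to follow ERK, Epha2 and Myc were called, both higher (9.52%, against 0.386% of all genes), and 15 of the 21 differences were above 0. Epha2, an ephrin receptor tyrosine kinase, read 8.91 and 8.90 in GCSF against 9.47 and 9.52 in LIF/PD and 9.49 and 9.61 in control. Its difference was 0.59 ± 0.05 (adjusted p = 0.00205). It was also the only called gene of 13 tested Eph receptors and ephrins (7.69%, against 0.765% of all genes in either direction). The ETS factor Etv4 differed by 0.07. Etv5, a related ETS factor, differed by 0.06 on its brightest feature, while a second feature passed (0.24 ± 0.04, adjusted p = 0.0433). Fosl1, an AP-1 partner, differed by 0.37 ± 0.07 (adjusted p = 0.0516) and Phlda1 by 0.31, neither passing.

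Among 15 tested immediate early regulators of the EGR and IER type, Egr1 was called higher and Atf3 and Klf6 lower. That is 20%, against 0.765% of all genes in either direction. Egr1, the zinc finger factor that serum and growth factors induce within minutes, read 8.49 and 8.38 in control, 6.98 and 6.90 in GCSF and 8.34 and 8.17 in LIF/PD. It was higher by 1.31 ± 0.08, or 2.48-fold (adjusted p = 0.000158), and both GCSF values lay below all others. No other tested EGR or IER gene was called. Egr3 differed by 0.11, Ier2 by 0.17 and Ier3 by -0.01, none passing, and Egr2 was below the level at which features were tested. Fos differed by 0.26 ± 0.09 (adjusted p = 0.325), so that a difference in Fos was not resolved with 2 arrays a group.

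The AP-1 factor Jun and the stress-responsive factor Atf3 went the other way from Egr1. They were the only 2 called among 13 tested AP-1 genes (15.4%, against 0.765% of all genes in either direction). Jun read 8.91 and 9.14 in control, 9.76 in both GCSF arrays, and 9.16 and 9.10 in LIF/PD. It was lower by -0.63 ± 0.07 (adjusted p = 0.00696). Atf3 was lower by -0.55 ± 0.07 (adjusted p = 0.011) and Klf6, a zinc finger factor, by -0.39 ± 0.05 (adjusted p = 0.0166). Junb, a STAT3-responsive AP-1 factor, read 7.67 and 7.75 in GCSF and 7.68 and 7.73 in LIF/PD, against 7.17 and 7.07 in control. Its difference between the treatments was -0.00, with a 95% interval from -0.17 to 0.16, while GCSF and LIF/PD stood above control by 0.59 and 0.58 (adjusted p = 0.00492 and 0.04). Calls of Jun, Atf3 and Klf6 were each lost without GCSF replicate 1 (0.0577, 0.0705 and 0.101), without LIF/PD replicate 1 (0.0731, 0.0827 and 0.0827) and without LIF/PD replicate 2 (0.0969, 0.116 and 0.14), and those of Atf3 and Klf6 also without GCSF replicate 2 (0.0566 and 0.0558).

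Rhob had the largest fall of any gene. This small GTPase, itself an immediate early gene, read 8.16 and 8.04 in control, 9.44 and 9.32 in GCSF, and 8.11 and 8.04 in LIF/PD. It was lower in LIF/PD by -1.31 ± 0.07, a 2.47-fold difference (adjusted p = 7.32e-05), and LIF/PD matched control to within -0.02. Ccn1, a secreted matrix protein and a target of SRF and YAP, read 10.45 and 10.53 in GCSF and 9.98 and 9.81 in LIF/PD and was lower by -0.60 ± 0.06 (adjusted p = 0.00487). They were the 2 called of 18 tested SRF and YAP targets (11.1%, against 0.765% of all genes in either direction), whose median difference was -0.03. Ccn2 at -0.06, Ankrd1 at -0.18 and the actin gene Acta2 at 0.02 did not pass.

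**Figure D3:**
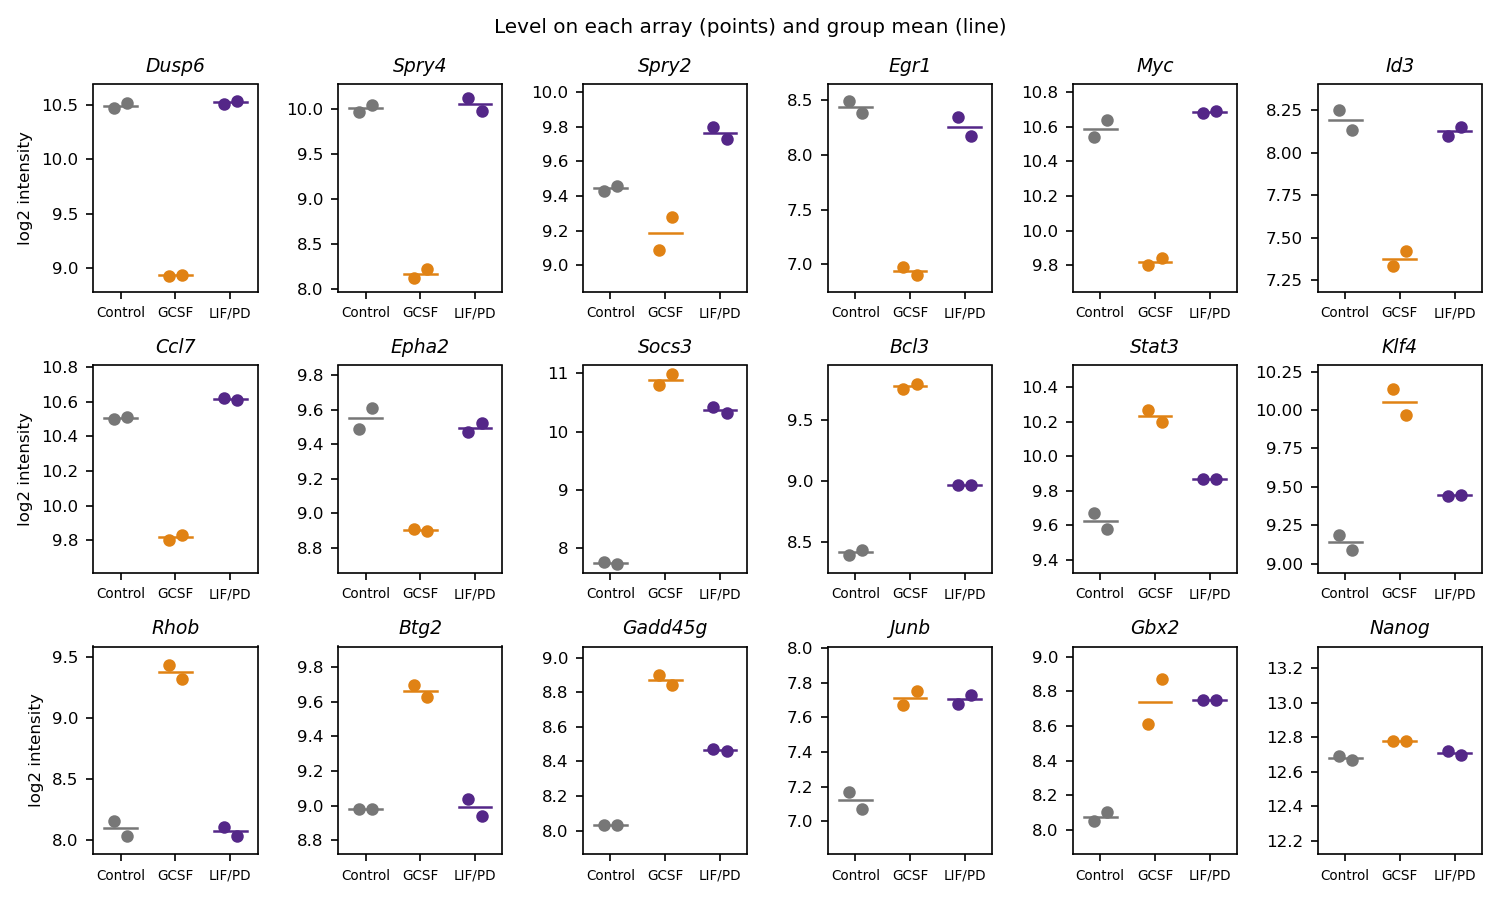
Level of 18 genes in each of the 6 arrays (vertical axis, log2 intensity), with control, GCSF and LIF/PD side by side, 1 point per array, a line at each group mean and a separate axis range for each gene. Dusp6, Spry4, Egr1, Myc, Id3, Ccl7 and Epha2 dip in GCSF, Rhob and Btg2 rise there and return to control in LIF/PD, Socs3 and Junb stand above control in both treatments, and Nanog varies little.

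Among 39 tested STAT3 targets and feedback genes, 5 were called, all lower in LIF/PD than in GCSF (Socs3, Bcl3, Stat3, Icam1 and Gadd45g), against 0.378% of all genes. The group's median difference was -0.06, and 29 of 39 differences were below 0. Socs3, the feedback inhibitor that binds gp130 and the JAK kinases, read 7.77 and 7.73 in control, 10.79 and 10.98 in GCSF and 10.42 and 10.32 in LIF/PD. Both treatments were far above control, by 3.13 ± 0.07 and 2.62 ± 0.07 (adjusted p = 2.70e-07 and 1.21e-06). The gap between them was -0.51 ± 0.07 (adjusted p = 0.0123). A second, dimmer Socs3 feature gave -0.12 ± 0.08 and did not pass (adjusted p = 0.63).

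Bcl3, an atypical I-kappa-B protein and STAT3 target, read 8.40 and 8.44 in control, 9.75 and 9.79 in GCSF, and 8.97 in both LIF/PD arrays. The LIF/PD arrays lay between the other groups, lower than GCSF by -0.80 ± 0.05 (adjusted p = 0.000153) and above control by 0.55 ± 0.05 (adjusted p = 0.00791). Stat3 itself read 9.67 and 9.58, 10.27 and 10.20, and 9.87 in both LIF/PD arrays, a difference of -0.37 ± 0.05 (adjusted p = 0.0118). Gadd45g, a growth arrest gene, was lower by -0.41 ± 0.05 (adjusted p = 0.0125), and Icam1, a cell adhesion molecule, by -0.45 ± 0.07 (adjusted p = 0.0325). In all 4 the LIF/PD values fell between control and GCSF without overlap. Other STAT3-related genes did not pass, among them Cish at -0.40, Irf9 at -0.30, Osmr at -0.27, Lifr at -0.22 and Pim3 at -0.18, and the receptor gene Il6st differed by -0.10 and Pim1 by 0.11.

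Several of these calls were lost when 1 array was left out. The Socs3 call was lost without LIF/PD replicate 1 (adjusted p = 0.0784) or 2 (0.129). Stat3 and Gadd45g lost theirs without GCSF replicate 1 (0.0733 and 0.0863), LIF/PD replicate 1 (both 0.11) or LIF/PD replicate 2 (0.11 and 0.119). For Icam1 the adjusted p was 0.0615 to 0.182 whichever array was left out, and Bcl3 remained called each time.

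The sequence before the start sites of called genes was searched for the letters that STAT factors are known to bind. RefSeq promoter windows (GRCm38.p6, 250 bases before to 50 after a start site) were at hand for 79 of 107 called genes, 35 higher and 44 lower. Egr1, Myc, Spry4, Dusp4, Ccl2, Ccl7 and Smad7 were among the called genes without a window. Their promoters were not searched, and the shares below leave them out. The STAT pattern TTCNNNGAA, which reads the same on both strands, occurred in 8.3% of all 32851 windows and in 6.63% of windows of tested genes. It stood in 3 of 50 windows (6%) of higher genes and in 11 of 58 (19%) of lower genes. The narrower TTCCNGGAA, a part of the first pattern, was in 1.15% of all windows, in 1.2% of those of tested genes, in 0 of the higher and in 3 (5.17%) of the lower, those of Helb, Icam1 and Sbno2. The AP-1 pattern TGACTCA, searched on both strands, was in 5.2% of all windows, 3.76% of those of tested genes and 0 of those of either called group. A CArG box, the SRF pattern, was in 1.63% of all windows, 1.28% of those of tested genes and likewise 0 of the called. The ETS pattern CCGGAAG, on both strands, was in 8.86% of all windows, 16.1% of those of tested genes, 12% of higher and 10.3% of lower ones. These matches describe letters and were not tested. The windows of the lower genes Bcl3, Stat3, Gadd45g and Klf4 held no STAT match. As examples, 3 lower genes with 1 match each were picked by hand, a feedback inhibitor, an adhesion gene and a noncoding RNA. The part before the start site is shown for each, with the STAT match in capitals. For Socs3 it is chr11:117969367-117969616 on the minus strand, for Icam1 chr9:21015690-21015939 and for Rian chr12:109603695-109603944, both on the plus strand, and the matches begin at -154, -42 and -46 from the start site.
Socs3: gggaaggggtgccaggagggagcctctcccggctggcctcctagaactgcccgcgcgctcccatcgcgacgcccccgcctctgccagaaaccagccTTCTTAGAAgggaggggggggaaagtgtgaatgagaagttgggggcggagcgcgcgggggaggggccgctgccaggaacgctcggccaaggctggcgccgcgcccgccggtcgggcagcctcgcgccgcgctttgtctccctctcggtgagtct
Icam1: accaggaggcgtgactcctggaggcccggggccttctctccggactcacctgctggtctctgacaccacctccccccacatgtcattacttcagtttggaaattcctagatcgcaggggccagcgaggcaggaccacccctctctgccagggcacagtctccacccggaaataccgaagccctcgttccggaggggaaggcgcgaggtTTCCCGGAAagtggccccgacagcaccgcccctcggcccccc
Rian: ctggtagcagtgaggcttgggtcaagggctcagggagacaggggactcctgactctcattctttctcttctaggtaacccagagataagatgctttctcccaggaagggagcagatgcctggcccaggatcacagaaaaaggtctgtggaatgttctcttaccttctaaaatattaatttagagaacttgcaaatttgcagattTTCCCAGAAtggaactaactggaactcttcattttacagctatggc

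Pluripotency factors that respond to LIF moved in both directions. Of 18 tested LIF-responsive and naive factors, Myc and Nr0b1 were called higher in LIF/PD and Klf4 lower (16.7%, against 0.765% of all genes). Myc, which drives growth and self-renewal, read 10.54 and 10.64 in control, 9.80 and 9.84 in GCSF and 10.68 and 10.69 in LIF/PD. It was higher by 0.86 ± 0.04, or 1.82-fold (adjusted p = 7.32e-05). Klf4, a direct STAT3 target and reprogramming factor, read 9.19 and 9.09 in control, 10.14 and 9.97 in GCSF and 9.44 and 9.45 in LIF/PD. It was lower by -0.62 ± 0.06 (adjusted p = 0.00387), with LIF/PD between the other groups. Nr0b1, the nuclear receptor DAX1, was higher by 0.21 ± 0.03 (adjusted p = 0.0185). The Klf4 call was lost without LIF/PD replicate 1 (0.0675) or 2 (0.051), and for Nr0b1 the adjusted p was 0.0569 to 0.157 whichever array was left out.

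Klf5 and Gbx2, of the same group, stood above control in both treatments with smaller gaps between them. Klf5 was above control by 0.56 in GCSF and 0.43 in LIF/PD, and the treatments differed by -0.13 ± 0.04 (adjusted p = 0.187). Gbx2, a homeobox gene that LIF induces, read 8.05 and 8.10 in control, 8.61 and 8.87 in GCSF and 8.75 in both LIF/PD arrays. Its difference was 0.01, with a 95% interval from -0.17 to 0.20. Between the treatments Tbx3 differed by 0.02, Esrrb by -0.03, Klf2 by -0.16, Tfcp2l1 by -0.12 and Mycn by -0.11, none of which passed. LIF/PD minus control was 0.23 for Tbx3, 0.01 for Esrrb, -0.03 for Klf2, 0.00 for Tfcp2l1 and 0.30 for Mycn. None of these passed either. Of 24 tested members of the MYC network and ribosome biogenesis genes, Myc alone was called (4.17%, against 0.765% of all genes). Of the 24 differences, 17 were below 0.

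Of 23 tested core pluripotency genes, 1 was called higher and 1 lower (8.7%, against 0.765% of all genes). An unadjusted limma p under 0.05 was reached by 11 of the 23, and by 1994 of all 16912 tested features. The differences of the 23 ran from -0.24 (Fbxo15) to 0.29 (Otx2), with a median of -0.00. Pou5f1, the gene of OCT4, read 12.59 and 12.61 in GCSF and 12.60 in both LIF/PD arrays. Sox2 differed by 0.01 ± 0.04, Nanog by -0.07 ± 0.03 (adjusted p = 0.394) and Zfp42 by -0.00 ± 0.06. Utf1, a chromatin factor of undifferentiated cells, was higher by 0.23 ± 0.03 (adjusted p = 0.0137), and Tdgf1, the Nodal co-receptor Cripto, was lower by -0.17 ± 0.03 (adjusted p = 0.0434). Without GCSF replicate 1, LIF/PD replicate 1 or LIF/PD replicate 2 the Utf1 call was lost (0.0522, 0.142 and 0.119), and for Tdgf1 the adjusted p was 0.0773 to 0.298 whichever array was left out.

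BMP, ID and SMAD genes were called in 1 direction. Of 18 tested, 4 were higher in LIF/PD (Id3, Bmp4, Smad7 and Tgif1), or 22.2% against 0.386% of all genes, and 0 were lower against 0.378%, with a median difference of 0.08. Id3, an inhibitor of basic helix-loop-helix factors that BMP induces, read 8.25 and 8.13 in control, 7.33 and 7.42 in GCSF and 8.10 and 8.15 in LIF/PD. It was higher by 0.75 ± 0.07 (adjusted p = 0.00221). The ligand Bmp4 read 9.93 and 10.03 in GCSF and 10.49 and 10.52 in LIF/PD and was higher by 0.52 ± 0.04 (adjusted p = 0.00158). Smad7, the inhibitory SMAD, was higher by 0.43 ± 0.04 (adjusted p = 0.0021) and Tgif1, a SMAD co-repressor, by 0.20 ± 0.03 (adjusted p = 0.041). Id1 differed by 0.32 ± 0.07 (adjusted p = 0.0981), while Id2 at -0.17 had the opposite sign, and neither passed. Tgif1 was lost whichever array was left out (0.0615 to 0.298), and the calls of Id3, Bmp4 and Smad7 remained.

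The 3 called chemokine genes were of the CC class and higher in LIF/PD. Ccl7 read 10.50 and 10.51 in control, 9.80 and 9.83 in GCSF and 10.62 and 10.61 in LIF/PD, a difference of 0.81 ± 0.04 (adjusted p = 4.57e-05). Ccl2, its neighbour in the cluster and a monocyte attractant, was higher by 0.49 ± 0.05 (adjusted p = 0.00287), and Ccl3 by 0.77 ± 0.08 (adjusted p = 0.00506). For all 3 the GCSF arrays lay below both other groups. In the tested group of 17 NF-kB and chemokine genes, Ccl2 and Ccl7 were the higher calls and Bcl3 and Icam1 the lower ones. That is 23.5%, against 0.765% of all genes in either direction. Cxcl1 differed by -0.07, Cxcl12 by 0.02 and the NF-kB inhibitor Nfkbia by 0.17 without passing. The Ccl3 call was lost without LIF/PD replicate 1 (0.0675).

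Growth arrest and p53-related genes divided within families. Of 15 tested, Gadd45a and Plk3 were higher and Gadd45b, Gadd45g and Btg2 lower (33.3%, against 0.765% of all genes in either direction). Gadd45a, a stress sensor, read 8.85 and 8.83 in GCSF and 9.39 and 9.25 in LIF/PD and was higher by 0.48 ± 0.06 (adjusted p = 0.0071), whereas its relative Gadd45b was lower by -0.36 ± 0.06 (adjusted p = 0.0354). Btg2, an antiproliferative gene that recruits the deadenylase complex to messenger RNA, read 8.98 in both control arrays, 9.70 and 9.63 in GCSF and 9.04 and 8.94 in LIF/PD. It was lower by -0.68 ± 0.05 (adjusted p = 0.00104) and stood at the control level in LIF/PD. Zfp36l2, a zinc finger protein that promotes RNA decay, was higher by 0.43 ± 0.04 (adjusted p = 0.00287). The 13 tested mRNA decay regulators thus held 1 call each way (15.4%, against 0.765% of all genes). The polo-like kinase Plk3 was higher by 0.33 ± 0.04 (adjusted p = 0.012). Without LIF/PD replicate 1 the calls of Gadd45a (0.0707), Zfp36l2 (0.0565) and Plk3 (0.11) were lost, and that of Plk3 also without LIF/PD replicate 2 (0.11) or GCSF replicate 2 (0.0513). For Gadd45b the adjusted p was 0.0615 to 0.217 whichever array was left out.

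Of 16 tested interferon response genes, Stat2 and Usp18 were called, both lower in LIF/PD (12.5%, against 0.378% of all genes), 12 differences were below 0 and the median was -0.11. Stat2, a transcription factor of interferon signalling, was lower by -0.35 ± 0.06 (adjusted p = 0.0319), and Usp18, which removes ISG15 and restrains the interferon receptor, by -0.41 ± 0.06 (adjusted p = 0.0287). Both read at the control level in LIF/PD, differing from it by 0.05 and -0.06. Ifit1 at -0.51 and Irf9 at -0.30 did not pass. Neither call survived the loss of any array, with adjusted p from 0.0724 to 0.235 for Stat2 and from 0.0566 to 0.226 for Usp18.

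Rian, an imprinted noncoding RNA of the Dlk1-Dio3 region that hosts small RNAs, had the second largest fall among single-symbol genes. It read 6.91 and 6.87 in control, 8.16 and 8.23 in GCSF and 6.95 and 7.17 in LIF/PD, lower by -1.14 ± 0.08, or 2.2-fold (adjusted p = 0.00084). Of other named transcripts of the region, Meg3 differed by -0.39, Rtl1 by -0.08 and Dlk1 by 0.16, and none of these 3 passed. Of 11 tested features in a range numbered around Rian, which includes it, 10 were called lower, against 0.443% of all tested features. That range is described under Other observations. MicroRNA genes made up 85 tested features, of which 1 was called higher and 3 lower (4.71%, against 0.846% of all tested features). Their median difference was -0.04. The sources used here do not say whether these features read a precursor or the mature strand. Mir674 read 8.41 and 8.42 in control, 7.71 and 7.82 in GCSF and 8.50 and 8.43 in LIF/PD and was higher by 0.70 ± 0.06 (adjusted p = 0.00205). Mir329 was lower by -0.51 ± 0.09 (adjusted p = 0.0405), and its call was lost whichever array was left out (0.0686 to 0.244). Mir341 and Mir15a, singled out after their values were seen, were lower by -0.39 ± 0.06 and -0.42 ± 0.06 (adjusted p = 0.0354 and 0.0252). By RefSeq, Mir329 and Mir341 lie on chromosome 12 as Rian does. The mature strands from RefSeq (GRCm38.p6) follow so that their seeds, bases 2 to 8 in capitals, can be compared, and no seed was shared. The positions of the first strand of each gene are chr2:117185151-117185172, chr12:109713503-109713524 and chr12:109611521-109611541 on the plus strand and chr14:61632075-61632096 on the minus strand.
miR-674-5p: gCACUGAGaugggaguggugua
miR-674-3p: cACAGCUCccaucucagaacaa
miR-329-5p: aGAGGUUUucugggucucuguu
miR-329-3p: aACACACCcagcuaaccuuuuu
miR-341-5p: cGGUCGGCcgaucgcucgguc
miR-341-3p: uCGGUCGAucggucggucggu
miR-15a-5p: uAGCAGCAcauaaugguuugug
miR-15a-3p: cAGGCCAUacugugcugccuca

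Other genes among the largest differences fell outside these groups. Platr8, a noncoding RNA linked to pluripotency, read 6.99 and 7.32 in control, 6.53 and 6.26 in GCSF and 7.41 and 7.46 in LIF/PD, higher by 1.04 ± 0.12 (adjusted p = 0.00894). Ch25h, which makes 25-hydroxycholesterol, read 7.45 and 7.49, 7.27 and 7.13, and 7.81 and 7.77, higher by 0.59 ± 0.07 (adjusted p = 0.00913). In both genes LIF/PD read above control and GCSF below it, without overlap. Trim36, an E3 ubiquitin ligase, was higher by 0.61 ± 0.09 (adjusted p = 0.0185). Dnajb4, a heat shock co-chaperone, was lower by -0.58 ± 0.08 (adjusted p = 0.0166), Spic, an ETS factor of the SPI1 type, by -0.50 ± 0.07 (adjusted p = 0.0235) and Elobl by -0.51 ± 0.08 (adjusted p = 0.0335). Calls of Platr8 and Ch25h were lost without LIF/PD replicate 1 (0.0924 and 0.11) or LIF/PD replicate 2 (0.104 and 0.0924). Trim36 lost its call without any one of the GCSF or LIF/PD arrays (0.0744 to 0.159) and Dnajb4 without either GCSF array (0.113 and 0.0575) or LIF/PD replicate 2 (0.0617), while those of Spic and Elobl were lost whichever array was left out (0.0531 to 0.178 and 0.0507 to 0.226).

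Some calls held for a single feature of a gene. Rbpj, the DNA-binding partner of Notch, read 9.61 and 9.75 in control, 8.38 and 8.42 in GCSF and 9.58 and 9.60 in LIF/PD on its called feature, a difference of 1.18 ± 0.06 (adjusted p = 5.77e-05). Its brighter feature differed by 0.05 ± 0.03 and did not pass, and none of the 15 tested Notch pathway genes was called by its brightest feature, with 1 of the 15 at an unadjusted p under 0.05. Top2a, the DNA topoisomerase of dividing cells, was likewise higher by 0.62 ± 0.10 on a dim feature (adjusted p = 0.0361), a call lost whichever array was left out (0.0579 to 0.25), and differed by -0.05 on its main feature. Of 14 called genes with several tested features, 1 was called on all of them, the antiviral deaminase Apobec3, at -0.28 and -0.43. The sources used here do not say which part of a transcript each feature covers.

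**Figure D4:**
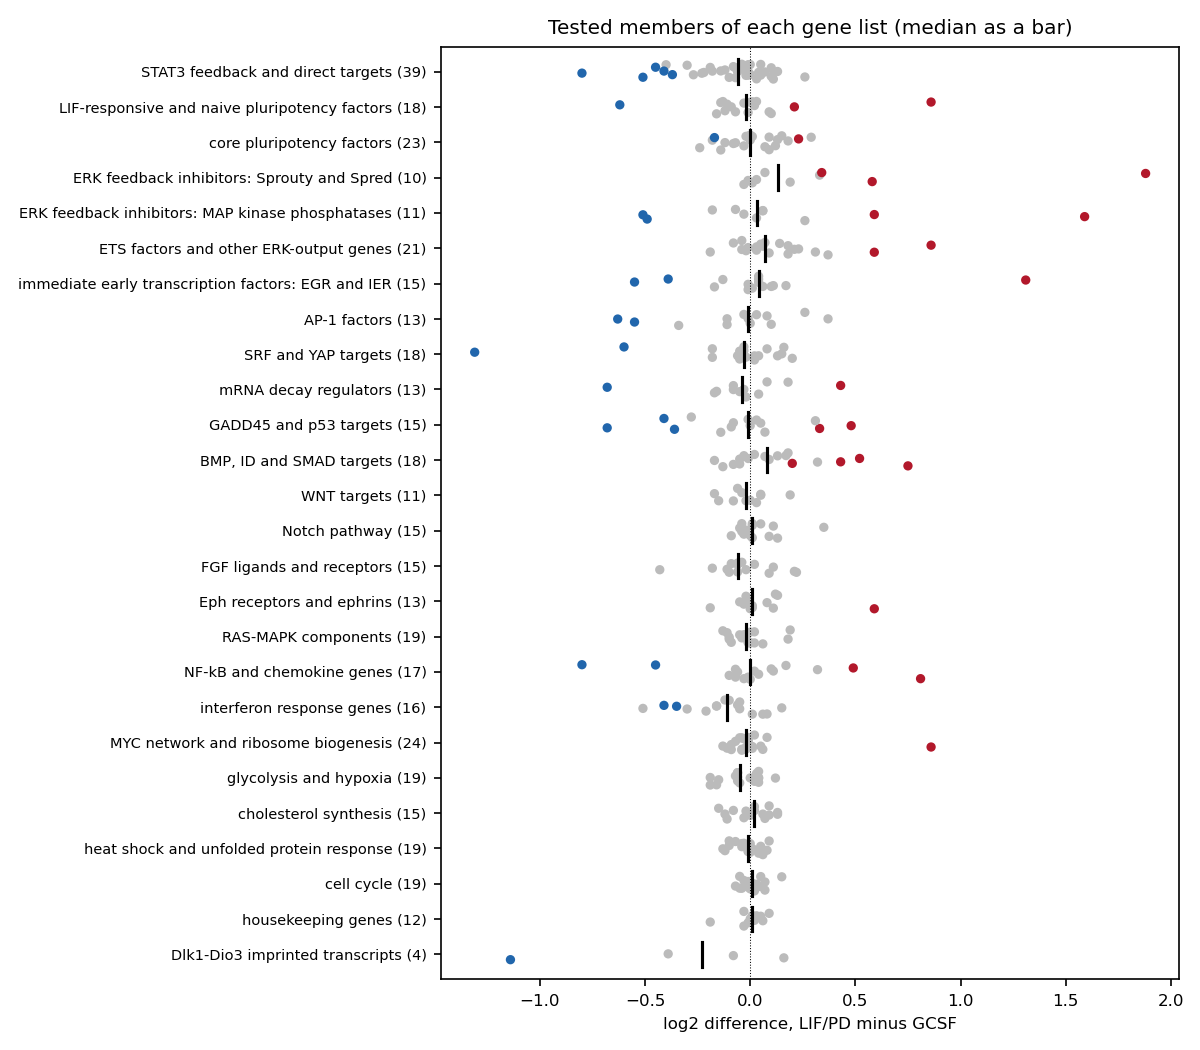
Difference between LIF/PD and GCSF (horizontal axis, log2) for each tested member of the 26 gene groups, 1 row per group, with called members coloured by direction and the group median marked. Sprouty and phosphatase genes reach farthest to the right, Rhob and Rian farthest to the left, and the medians of all groups lie between -0.23 and 0.13.

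In 9 of the 26 groups no member passed limma's test by its brightest feature. They were WNT targets (11 tested), the Notch pathway (15), FGF ligands and receptors (15), RAS-MAPK components (19), glycolysis and hypoxia (19), cholesterol synthesis (15), heat shock and unfolded protein response (19), cell cycle (19) and housekeeping genes (12). Their medians lay between -0.06 and 0.02. An unadjusted limma p under 0.05 was reached by 1994 of all 16912 tested features. In these groups it was reached by 1, 1, 4, 2, 4, 4, 2, 0 and 1 genes in the same order. Fgf10 at -0.43 and the Notch target Hes1 at 0.35 were the farthest from 0, while the kinases of the cascade were close to it, with Map2k1 at -0.02, Braf at -0.09 and Map2k2 at 0.18.

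ES cell markers were high in every array. All 9 averaged 11.93 to 12.01 across the 6 arrays, with Utf1 and Tdgf1 called as above. Markers of primitive endoderm averaged 7.54 to 7.60, of mesoderm 7.10 to 7.26, of neuroectoderm 8.27 to 8.37, of trophoblast 8.52 to 8.62 and of feeder fibroblasts 10.21 to 10.27. The fibroblast genes Col1a1 at 10.76 to 10.84 and Vim at 13.41 to 13.47 were thus abundant, Lum at 5.48 to 5.73 was low, and 0 of the 8 fibroblast markers bright enough to test were called. Among all of these 1 more was called, the endoderm laminin gene Lama1, lower in LIF/PD by -0.34 (adjusted p = 0.0232). In bulk RNA, fewer cells of a type and less RNA per cell cannot be told apart. Csf3r, the mouse gene of the GCSF receptor, read 5.72 to 5.96 in all arrays, below the level at which features were tested. The species of the chimera's outer part was not established here. The sources used here do not say whether the Csf3r feature lies in the part that the chimera carries.

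Many calls were lost when 1 array was left out, while the difference kept its sign in all 143 called features. A lost call does not by itself show that 1 array carried the difference, as each omission also leaves fewer arrays. Of the 143 called features, 28 kept their call whichever of the 6 arrays was left out, 17 higher and 11 lower. The number called ranged from 18 to 58 higher and from 12 to 40 lower, and was smallest without LIF/PD replicate 1. Among the 49 named genes with a call, 17 were called in every case: Dusp6, Spry4, Egr1, Myc, Epha2, Id3, Bmp4, Smad7, Ccl2, Ccl7, Rbpj and Mir674 in the higher direction, and Bcl3, Rhob, Btg2, Ccn1 and Rian in the lower.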

How the data were processed

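RNA from 6 samples carried a biotin label on arrays of 1 colour, per the labels. The authors deposited 1 value per feature and array, taken here as log2 intensity from the range of values. Scale, background correction and normalization are not given in the sources used here. Symbols came from the platform's annotation table, and 21553 matched RefSeq by Entrez identifier. The 6573 features numbered below the first annotated one were left out. Features with a mean at or above the 40th percentile (log2 6.70) were fitted in limma 3.58.1 (R 4.3.3) with 1 mean per group over all 6 arrays, a trended prior and Benjamini-Hochberg adjustment over 16912 features. That left 3 residual and 8.4 total degrees of freedom and a median SE of 0.0621, so the number of arrays limits the precision. In data simulated with the same design, the share of false calls came out above the nominal threshold.

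Named genes were the 15 largest called differences each way, the called members of 26 gene lists (432 of 499 entries tested) and 46 set genes, 78 in all. Members and lists were chosen with earlier results of these data known. Alternatives changed the filter, scaling, variance model, arrays, feature rule and replicate block.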

Additional observations from a re-analysis of the deposited data

Results flagged for a closer look

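The array also held 6573 features numbered below the first annotated one, which carried no gene symbol and were left out of the comparison. A fit over these features, with no filter on level, called 20 of them between LIF/PD and GCSF (0.304%), 9 higher and 11 lower. The test of genes, which left out dim features, called 0.846%. Without that filter it called 60 higher and 64 lower of 28187 features. Of the 6573, 639 had an unadjusted p under 0.05, against 1994 of the 16912 in the test of genes. The median difference of the 6573 was -0.0923. Their medians per array were 6.66 and 6.71 in control, 6.84 and 6.71 in GCSF and 6.58 and 6.68 in LIF/PD, so that both GCSF arrays lay above both LIF/PD arrays. With the per-array median of these features as a covariate, limma called 17 gene features higher and 9 lower in place of 68 and 75, and 12 and 9 of the original calls were among them. The sources used here do not say what these features measure.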

How the results depend on the processing

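Against 68 higher and 75 lower calls, the counts were 42 and 40 with the 4 treated arrays alone, 36 and 35 without the trended prior, 10 and 8 when limma tested against a 1.2-fold difference, and 17 and 9 with the median of the unannotated features as a covariate. Leaving out 1 array gave 18 to 58 higher and 12 to 40 lower calls. The other settings stayed within 1.5 times of the main counts: no filter (60 and 64), a 60th percentile filter (66 and 71), quantile scaling (62 and 80), median centring (65 and 74), a robust prior (79 and 85), array weights (69 and 72) and 1 value per gene, averaged or brightest (both 81 and 83). With the replicate block the counts were 88 and 77. Deviations of arrays with the same number correlated at 0.01, 0.08 and 0.1 between groups, so the numbers were not taken as pairs.

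Signs turned for 6 genes that were called under none of these settings and for Top2a. Over the 6 sets that leave out 1 array, Gbx2 ran from -0.11 to 0.14, Ier3 from -0.13 to 0.11, Junb from -0.04 to 0.03, Pou5f1 from -0.01 to 0.01, Sox2 from -0.02 to 0.03 and Zfp42 from -0.04 to 0.03. Gbx2 was also -0.13 with the covariate and Sox2 -0.01 with quantile scaling. Top2a gave -0.05 when its brightest feature stood for it, which is another feature than the called one. The cause of the other changes was not tested.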

Other observations

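Features numbered next to Rian behaved alike. On the array, 21 features are numbered from that of Mir341 to that of Mir329, a range that includes Rian, and 11 of these were bright enough to test. Of the 11, 10 were called lower in LIF/PD and 0 higher, against 0.443% and 0.402% of all tested features, with a median difference of -0.80. The 10 include Rian and also Mir341 and Mir329, whose called features set the ends of the range. Of the 10, 7 have no single symbol in the annotation, among them features 10398376 and 10398366, which differed by -1.07 and -1.04 (limma adjusted p = 0.00149 and 9.28e-05). This range was picked after the values were seen.

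Outside the gene groups, small differences were called for further genes, picked one by one after their values were seen, so that they stand for no pathway. Lower in LIF/PD were the noncoding RNA Malat1 by -0.47 ± 0.05 (adjusted p = 0.00301), Luc7l3 by -0.27, Pnn by -0.23 and Hnrnph1 by -0.23, the RNA helicase Ddx5 by -0.19 and Taf15 by -0.21. In these 6 genes the control arrays read between GCSF and LIF/PD. Higher in LIF/PD were Mrpl54 by 0.31, Ndufc1 by 0.27, Cox20 by 0.38 and Tmem126a by 0.25, the translation factor Eif3i by 0.22 and the ubiquitin-like Ubl5 by 0.26. A second feature of Ddx5 differed by -0.13 and of Ndufc1 by 0.29, and neither passed (limma adjusted p = 0.174 and 0.104). The splicing factor U2af1 was an exception in its position. It read 9.61 and 9.50 in control, 9.51 and 9.35 in GCSF and 8.97 and 8.91 in LIF/PD, lower by -0.49 ± 0.07 (adjusted p = 0.0148), whereas its other feature differed by -0.02. Lpar6, a receptor for lysophosphatidic acid, was higher by 0.45 ± 0.04 (adjusted p = 0.00197), with LIF/PD at 10.09 and 10.06 against 9.73 and 9.69 in control and 9.62 in both GCSF arrays.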
